A study of Mus musculus with 2 samples.

Results

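Neurotrophins are secreted survival and growth factors of the nervous system, and GDNF is the founder of a second family of such factors. Each neurotrophin binds a Trk receptor tyrosine kinase, TrkB (Ntrk2) for BDNF and neurotrophin-4 and TrkC (Ntrk3) for neurotrophin-3, while all of them also bind the p75 receptor (Ngfr). GDNF binds GFRalpha1 (Gfra1), which is anchored in the membrane by a lipid and signals through the receptor kinase Ret. In the embryo these genes are best known from sensory, sympathetic, enteric and motor neurons, and Trk genes also make truncated receptors that bind ligand but carry no kinase. The 8 genes described here were chosen by symbol: the ligands Bdnf, Ntf3 and Ntf5 (the gene of neurotrophin-4), the neurotrophin receptors Ntrk2, Ntrk3 and Ngfr, and the GDNF receptor genes Gfra1 and Ret. They are 8 of the 43346 Ensembl genes in the tables and have 34 transcripts there.

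The series measured polyadenylated RNA in 2 strand-specific paired-end libraries, replicate 2 and replicate 1, from the central nervous system of mouse embryos aged 11.5 days. Both came from C57BL/6J embryos, each from littermates of mixed sex pooled together, and no treatment or allele is labelled. The labels number them as biological replicates of 1 group, so there was no contrast between conditions and no p-value is given. The dissection boundary is not stated in the labels. In such bulk tissue, fewer cells of a type and less RNA per cell cannot be told apart.

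All 8 genes were expressed at 1 TPM (a level scaled to transcript length and to the library total) or more in both libraries, against 60.8% of protein-coding genes. The 3 neurotrophin receptor genes and Gfra1 stood above the 3 ligands, and Ret stood among the ligands. On the mean TPM scale the order was Ngfr at 25.2 ± 11.2, Gfra1 at 21.7 ± 4.65, Ntrk2 at 12.7 ± 0.877, Ntrk3 at 8.71 ± 1.49, Ntf3 at 4.26 ± 3.44, Ret at 2.38 ± 0.940, Bdnf at 1.45 ± 0.622 and Ntf5 at 1.33 ± 0.375 (SD, n = 2 for each). The ranges of the 2 libraries lay apart for 3 of the 7 neighbouring pairs: Gfra1 above Ntrk2, Ntrk2 above Ntrk3, and Ntrk3 above Ntf3. The Gfra1 level rests in part on short models: its 4 complete models alone had 15.4 TPM in replicate 2 and 10.7 TPM in replicate 1 (mean 13.1), a range that overlaps that of Ntrk2, so the first of these 3 calls is lost on that setting, chosen after seeing the data. The ranges also overlapped for Ngfr and Gfra1, and for each neighbouring pair among Ntf3, Ret, Bdnf and Ntf5. Among protein-coding genes the levels ran from percentile 38.9 for Ntf5 to percentile 73.5 for Ngfr.

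**Figure D1:**
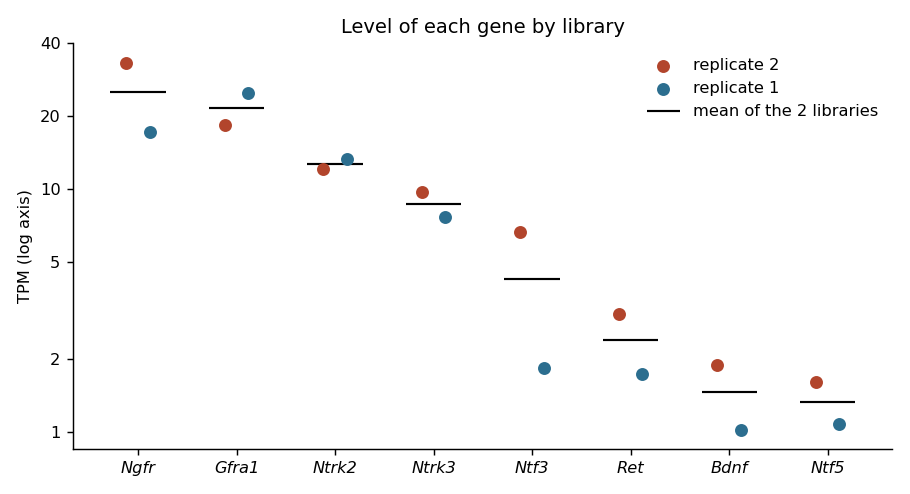
TPM (log axis) of each gene in replicate 2 (left point) and replicate 1 (right point), with the mean of the libraries as a bar. Ngfr and Gfra1 lie highest in both libraries, although the complete models of Gfra1 alone (10.7 TPM in replicate 1) would lie below Ntrk2 in replicate 1, and Ntf3 has the widest gap, with 6.69 TPM in replicate 2 and 1.83 TPM in replicate 1.

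Marker lists of several tissues differed between the libraries. All 8 neural tube markers were above 1 TPM in both libraries, and their summed level was 1191 TPM in replicate 2 and 1614 TPM in replicate 1. Caudal Hox genes, which mark the trunk and tail levels of the body axis, summed to 152 TPM in replicate 2 and 3.42 TPM in replicate 1, and all 7 were at least 2-fold higher in replicate 2. The 4 skeletal muscle markers summed to 429 TPM in replicate 2 and 103 TPM in replicate 1 and were likewise all at least 2-fold higher in replicate 2. Most of both sums was Actc1, with 372 TPM in replicate 2 and 102 TPM in replicate 1. Myog, Myod1 and Myf5 had 34.2, 19.4 and 2.87 TPM in replicate 2 and 0.40, 0.15 and 0.10 TPM in replicate 1. Of the 7 nephric markers with 100 counts or more, 6 passed 2-fold, all higher in replicate 2, and the 9 genes of that list summed to 100 TPM in replicate 2 and 46.9 TPM in replicate 1. Mesenchyme markers summed to 687 TPM in replicate 2 and 679 TPM in replicate 1, and 2 of 7 passed 2-fold, both higher in replicate 2. These near-equal sums hold opposite shifts. The collagen genes Col3a1, Col1a2 and Col1a1 were 1.33-, 1.16- and 1.82-fold lower in replicate 2. Prrx1, Pdgfra, Twist1 and Foxc2 were 3.27-, 2.40-, 1.91- and 1.85-fold higher there. No gene of the neural tube, caudal Hox, muscle or mesenchyme lists was at 0, while the nephric marker Cdh16 was listed at 0 in replicate 1 and at 0.45 TPM in replicate 2. Blood and endothelium lists, of 3 genes each, had no gene 2-fold apart. Depth was 111687579 expected counts for replicate 2 and 126358805 for replicate 1.

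**Figure D2:**
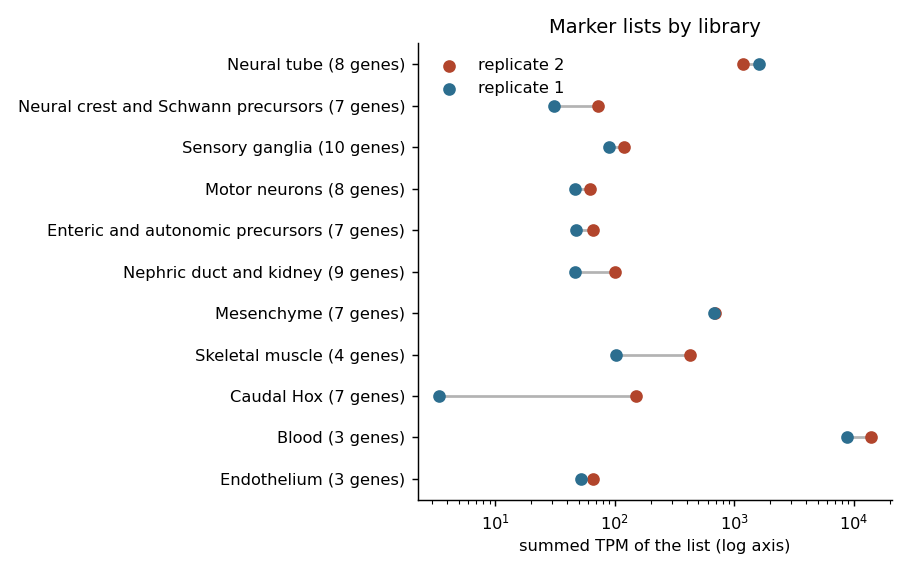
Summed TPM (log axis) of each marker list in replicate 2 and replicate 1, with the number of genes in the list. Caudal Hox genes are farthest apart, at 152 TPM in replicate 2 and 3.42 TPM in replicate 1, while the neural tube list is the only 1 of the 11 that is lower in replicate 2.

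Between the libraries, 1 of the 8 genes, Ntf3, was at least 2-fold apart, where 11.4% of the 16511 genes with 100 counts or more were. Expected counts scaled by TMM, a method that corrects for library size and composition, were higher in replicate 2 for 7 of the 8, against 49.4% of those 16511 genes, and the median log2 ratio of the 8 was 0.54 against -0.01 over all genes tested. The exception was Ntrk2, which was lower in replicate 2. The interval given with each fold is an exact 95% binomial interval on both counts. It holds counting error alone and sets library against library, not condition against condition.

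**Figure D3:**
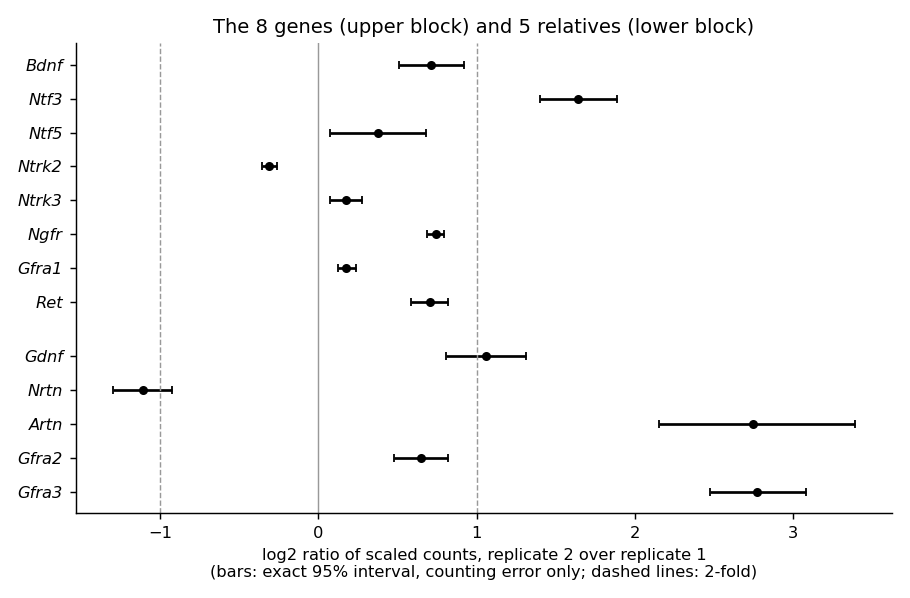
Log2 ratio of scaled counts, replicate 2 over replicate 1, for the 8 genes (upper block) and 5 relatives (lower block), with exact 95% counting intervals and dashed lines at 2-fold. Ntf3 (1.64) is the only gene of the upper block beyond 2-fold, and Ntrk2 (-0.31) the only 1 below 0.

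Ntf3, the gene of neurotrophin-3 (ENSMUSG00000049107, mm10 chr6:126101412-126166910, minus strand), had the highest mean level of the 3 ligands among the 8 genes. It had 6.69 TPM in replicate 2 and 1.83 TPM in replicate 1. The scaled counts were 3.12-fold higher in replicate 2 (2.64 to 3.69), from 583 counts in replicate 2 and 191 in replicate 1. Its 2 transcripts differ in the exons before the single exon that holds the rest of the coding sequence. Transcript 202 had 3.75 TPM in replicate 2 and 1.37 TPM in replicate 1, and transcript 201 had 2.94 TPM in replicate 2 and 0.46 TPM in replicate 1. Transcript 202 was thus the more abundant in both libraries, at 56.1% of the gene in replicate 2 and 74.9% in replicate 1, although the deposited credibility bounds of the transcripts overlapped in replicate 2 (2.97 to 4.43 TPM for 202 and 2.18 to 3.73 TPM for 201). In the junction list of the whole series, made on mm9 with 2 counts per junction that no label ties to a replicate, 85 reads joined the middle exon of transcript 202 to the last exon (12 and 73 in the first and second count). The other junction of transcript 202, from its first exon to the middle exon, had 10 reads (8 and 2). The direct junction of transcript 201 had 25 reads (3 and 22), between these values, so the spliced reads do not order the transcripts. Another 11 reads (1 and 10) used an unannotated donor 4 bases away from that of transcript 201. In the limb and muscle this ligand is known as a target-derived factor of proprioceptive neurons. Beside the difference in Ntf3, the muscle markers Myod1 and Myog had 19.4 and 34.2 TPM in replicate 2 and 0.15 and 0.40 TPM in replicate 1, and the motor neuron list had 5 of 8 genes at least 2-fold higher in replicate 2. The part of these tissues in the Ntf3 difference was not tested.

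Bdnf (ENSMUSG00000048482, chr2:109674700-109727007, plus strand) had 1.89 TPM in replicate 2 and 1.01 TPM in replicate 1. The scaled counts were 1.64-fold higher in replicate 2 (1.42 to 1.89), from 524 counts in replicate 2 and 327 in replicate 1. The gene is known for its many first exons, each with its own promoter, which are all spliced to the same coding exon. Of its 11 transcripts in the tables, 1 carried nearly all of the level. Transcript 205, whose first exon is usually called exon VI in rodents, had 1.73 TPM in replicate 2 and 0.98 TPM in replicate 1, or 91.5% of the gene in replicate 2 and 98% in replicate 1. Transcript 209, which starts at the exon usually called IV and is best known for its response to neuronal activity, had 0.12 TPM in replicate 2 and 0.02 TPM in replicate 1. Transcript 202 had 0.04 TPM in replicate 2 and was listed at 0 in replicate 1, and the other 8 were listed at 0 in both. The spliced reads gave the same order, with 60 reads from exon VI (22 and 38), 3 from exon IV (2 and 1) and 1 from the first exon of transcript 202.

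Ntf5 (ENSMUSG00000074121, chr7:45413695-45417179, plus strand), the gene of the other TrkB ligand, had the lowest mean level of the 8. It had 1.60 TPM in replicate 2 and 1.07 TPM in replicate 1, from 208 and 164 counts. The scaled counts were 1.30-fold higher in replicate 2 (1.05 to 1.60). The ranges of Ntf5 and Bdnf overlapped, so the ligands of TrkB could not be ordered. The gene has 1 transcript, whose 2 junctions had 14 reads (0 and 14) and 26 reads (8 and 18).

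Ntrk2 (ENSMUSG00000055254, chr13:58806569-59133970, plus strand) encodes TrkB. It had 12.1 TPM in replicate 2 and 13.3 TPM in replicate 1, the smallest relative gap of the 8 on the TPM scale. The scaled counts were 1.24-fold lower in replicate 2 (1.2 to 1.28), from 6278 counts in replicate 2 and 7957 in replicate 1. Nestin (Nes) and Sox1, markers of dividing neural progenitors, were the 2 neural tube genes at least 2-fold lower in replicate 2: Nes had 72.2 TPM in replicate 2 and 233 TPM in replicate 1, and Sox1 had 11.02 TPM in replicate 2 and 25.3 TPM in replicate 1. Whether they bear on the Ntrk2 value was not tested.

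Most Ntrk2 RNA was of the truncated form. The tables hold 2 of its transcripts: transcript 201 encodes the kinase form (821 codons), and transcript 202 encodes the truncated form often called T1 (476 codons), which spans the membrane and ends soon after it. They share the coding exons up to the 100-base exon at chr13:58878163-58878262. The sequences below show the choice made there: the last 30 bases of the shared exon in lower case, followed in capitals by the truncated form's own 35 coding bases and stop codon, or by the first 39 of the 1070 coding bases particular to the kinase form. The capitals lie at chr13:58932023-58932060 and chr13:58985802-58985840 (mm10, plus strand, GENCODE M21).
Ntrk2 truncated form: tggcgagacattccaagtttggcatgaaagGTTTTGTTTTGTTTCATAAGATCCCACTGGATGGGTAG
Ntrk2 kinase form: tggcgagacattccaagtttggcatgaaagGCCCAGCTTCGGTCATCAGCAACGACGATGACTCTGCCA

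The truncated transcript had 9.86 TPM in replicate 2 and 11.8 TPM in replicate 1, and the kinase transcript had 2.21 TPM in replicate 2 and 1.49 TPM in replicate 1. The truncated share was therefore 81.7% in replicate 2 and 88.8% in replicate 1 (mean 85.2% ± 5.03, SD, n = 2). The deposited credibility bounds of the transcript TPMs, whose level the files do not state, allow a share of 80.3% to 83.1% in replicate 2 and 87.8% to 89.7% in replicate 1, ranges that do not overlap. Spliced reads gave a higher share. At the end of the shared exon, 727 reads were joined to the truncated form's exon and 41 to the first kinase-side exon, so 94.7% were truncated (exact 95% binomial interval 92.8% to 96.1%, for counting error only). The first deposited count gave 475 and 16 reads (96.7% truncated, interval 94.8% to 98.1%). The second gave 252 and 25 (91.0%, interval 87.0% to 94.1%). The intervals of the 2 counts do not overlap, so the spread between them was wider than counting error. Over the gene, 10 junctions shared by both forms had a median of 629 reads (383 to 945), while the 6 junctions of the kinase side had a median of 39.0 (19 to 69). The 2 annotated transcripts also start at different first exons, and there the reads were closer to even, with 202 from the first exon of the truncated transcript and 224 from that of the kinase transcript. The reads over a first-exon junction do not show which 3′ form the molecule had.

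Ntrk3 (ENSMUSG00000059146, chr7:78175959-78738012, minus strand) encodes TrkC. It had 9.77 TPM in replicate 2 and 7.66 TPM in replicate 1, and the scaled counts were 1.13-fold higher in replicate 2 (1.05 to 1.21). The tables hold 6 transcripts. Of these, 3 are full-length: 201 (825 codons) and the forms with inserted bases, 205 (839 codons) and 206 (864 codons). Transcript 202 is truncated (612 codons), and 203 and 204 have no coding sequence. The forms part after the 189-base exon at chr7:78356027-78356215. Below, the last 30 bases of that exon are in lower case and the first 39 bases of the next exon are in capitals, at chr7:78304388-78304426 for the truncated form, which has 251 coding bases of its own, and at chr7:78260376-78260414 for the kinase form, which has 890 (mm10, minus strand, GENCODE M21).
Ntrk3 truncated form: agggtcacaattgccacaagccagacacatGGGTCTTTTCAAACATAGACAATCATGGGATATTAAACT
Ntrk3 kinase form: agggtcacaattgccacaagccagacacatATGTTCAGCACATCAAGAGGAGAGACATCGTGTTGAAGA

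Here too the truncated form was the more abundant. It had 7.21 TPM in replicate 2 and 5.21 TPM in replicate 1, and the full-length transcripts together had 2.36 TPM in replicate 2 and 1.98 TPM in replicate 1. The truncated share of coding transcripts was 75.3% in replicate 2 and 72.5% in replicate 1 (mean 73.9% ± 2.03, SD, n = 2). The credibility bounds allow 69.7% to 78.8% in replicate 2 and 65% to 77.3% in replicate 1, so the shares of the libraries cannot be told apart. The inserted forms were nearly absent: 205 had 0.06 TPM in replicate 2 and 0.10 TPM in replicate 1, and 206 was listed at 0 in both. At the branch 53 reads were joined to the truncated exon and 13 to the kinase exon, so 80.3% were truncated (exact 95% binomial interval 68.7% to 89.1%, for counting error only). The 11 shared junctions had a median of 175 reads (74 to 461), and the 5 kinase-side junctions had a median of 22.0 (13 to 41). More reads were spliced into the last shared exon of Ntrk3 than out of it, with 308 entering and 69 leaving by 3 junctions. In Ntrk2 the same counts were 487 entering and 772 leaving. The deposited coverage contig over the Ntrk3 exon ran on for 2722 bases into the next intron, but the contig over the Ntrk2 exon also ran on, for 3051 bases. In the tables the models of transcripts 201 and 202 are 3300 and 2337 bases long, against 19703 and 3977 bases in GENCODE M21, so the Ntrk3 levels and shares rest on models without the longer ends.

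**Figure D4:**
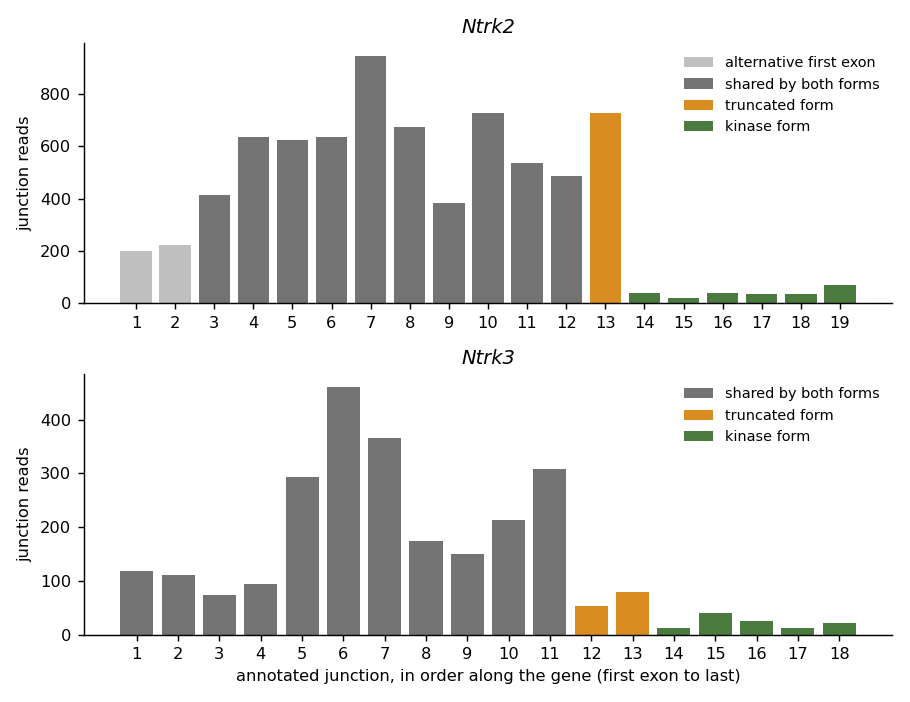
Reads over each annotated junction of Ntrk2 and Ntrk3 in order along the gene, both deposited counts summed, coloured by the form that uses the junction. In Ntrk2 the truncated junction (727 reads) stands at the height of the shared junctions and the kinase side lies between 19 and 69, and in Ntrk3 the junctions of either form (13 to 79 reads) lie lower than all but 1 of the shared junctions.

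Ngfr (ENSMUSG00000000120, chr11:95568818-95587735, minus strand) encodes p75, a receptor without a kinase that is strong in neural crest, early Schwann cells and developing motor neurons. It had 33.1 TPM in replicate 2 and 17.3 TPM in replicate 1, the highest mean of the 8 genes. The scaled counts were 1.67-fold higher in replicate 2 (1.61 to 1.73), from 7893 counts in replicate 2 and 4831 in replicate 1. It has 1 transcript, and its 5 junctions had 419 to 1632 reads. Of the 7 neural crest and Schwann precursor markers, 4 passed 2-fold, all higher in replicate 2, and the list summed to 72.2 TPM in replicate 2 and 31.0 TPM in replicate 1. Its defining gene Sox10 had 17.0 TPM in replicate 2 and 3.92 TPM in replicate 1, and Erbb3 had 8.29 TPM in replicate 2 and 1.08 TPM in replicate 1. No gene of that list was at 0 in either library. The part of crest-derived cells in the Ngfr difference was not tested.

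Ret (ENSMUSG00000030110, chr6:118151745-118197718, minus strand) had 3.05 TPM in replicate 2 and 1.72 TPM in replicate 1. The scaled counts were 1.63-fold higher in replicate 2 (1.5 to 1.76), from 1534 counts in replicate 2 and 964 in replicate 1. Ret is made with a short or a long tail after the kinase, known to differ in the adaptor proteins they bind. The short form (transcript 202, 1073 codons) runs on from the shared exon into bases that the long form (transcript 201, 1115 codons) splices out. Below, the last 30 shared bases at chr6:118155288-118155317 are in lower case, and the capitals show the 29 coding bases and stop codon of the short tail at chr6:118155256-118155287, or the first 39 of the 155 coding bases of the long tail at chr6:118153972-118154010 (mm10, minus strand, GENCODE M21).
Ret short tail: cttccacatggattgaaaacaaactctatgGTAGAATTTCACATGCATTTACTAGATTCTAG
Ret long tail: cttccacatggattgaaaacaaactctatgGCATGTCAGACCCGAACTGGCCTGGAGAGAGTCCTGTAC

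The short form had 2.37 TPM in replicate 2 and 0.93 TPM in replicate 1, and the long form had 0.67 TPM in replicate 2 and 0.79 TPM in replicate 1. The short form was 78.0% of the gene in replicate 2 and 54.1% in replicate 1. By transcript TPM the higher level of Ret in replicate 2 thus lay in the short form, an assignment that rests on the deposited models. The credibility bounds of the long form overlapped, at 0.461 to 0.933 TPM in replicate 2 and 0.599 to 0.943 TPM in replicate 1, and those of the short form did not (2.11 to 2.55 and 0.778 to 1.07 TPM in the same order). In the junction list 19 reads (10 and 9) entered the last exon of the long form, the fewest of the 19 junctions of the gene, and 171 (87 and 84) crossed the junction before it. In the tables the model of the short form is 7341 bases long, against 4497 in GENCODE M21. Ret marks motor neurons, enteric and autonomic precursors and the nephric duct. Motor neuron markers summed to 62.4 TPM in replicate 2 and 46.3 TPM in replicate 1, and their cholinergic genes Slc18a3 and Chat had 2.71 and 0.97 TPM in replicate 2 and 0.13 and 0.06 TPM in replicate 1. Enteric and autonomic markers summed to 66.4 TPM in replicate 2 and 47.8 TPM in replicate 1, with 3 of 7 at least 2-fold higher in replicate 2. The nephric genes Pax2 and Pax8 had 5.96 and 5.12 TPM in replicate 2 and 1.61 and 1.17 TPM in replicate 1. The part of each of these cell types in the Ret difference was not tested.

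Gfra1 (ENSMUSG00000025089, chr19:58235604-58455909, minus strand), the binding partner of Ret for GDNF, stood well above Ret in both libraries, at 18.4 TPM against 3.05 TPM in replicate 2 and 25.0 TPM against 1.72 TPM in replicate 1. Its difference between the libraries depends on the scale: the deposited TPM was lower in replicate 2, whereas the scaled counts were 1.13-fold higher there (1.09 to 1.18), from 4881 counts in replicate 2 and 4403 in replicate 1. The 2 scales part at short models. The 4 transcripts with a complete coding sequence summed to 15.4 TPM in replicate 2 and 10.7 TPM in replicate 1. The 4 short models that cover only the first exons, 349 to 841 bases long, summed to 3.02 TPM in replicate 2 and 14.3 TPM in replicate 1, from 76 and 334 counts. The largest of them, transcript 202, had 11.1 TPM in replicate 1 from 163 counts. In the junction list, 562 reads (381 and 181) and 340 reads (282 and 58) crossed junctions of the first exons, and 190 to 402 reads crossed the constitutive junctions further on.

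Gfra1 has a 15-base exon at chr19:58392573-58392587, and skipping it shortens the coding sequence of 468 codons to 463. The exon is in capitals below, between the last 30 bases of the exon before it (chr19:58451969-58451998) and the first 30 of the exon after it (chr19:58300549-58300578; mm10, minus strand, GENCODE M21).
Gfra1 with the exon: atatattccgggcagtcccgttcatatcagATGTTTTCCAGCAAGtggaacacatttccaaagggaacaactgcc
Gfra1 without the exon: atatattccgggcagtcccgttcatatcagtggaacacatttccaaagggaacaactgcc

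The exon was mostly included. Transcript 203, which skips it, had 5.74 TPM in replicate 2 and 0.44 TPM in replicate 1, or 37.2% of the complete models in replicate 2 and 4.11% in replicate 1. Its credibility bounds were 4.78 to 6.58 TPM in replicate 2 and 0.192 to 0.737 TPM in replicate 1. Transcript 201, which includes it, had 8.41 TPM in replicate 2 and 10.2 TPM in replicate 1. In the junction list 206 and 202 reads crossed the 2 junctions of the included exon and 51 skipped it, an inclusion of 80.0%. The first deposited count gave 91.2% inclusion, with 8 skipping reads, and the second gave 73.9%, with 43. Another 10 reads (4 and 6) crossed an unannotated junction that also spans the exon, with both ends shifted. Its intron is 151375 bases long, against 151390 for the annotated skipping junction. These reads are in neither count, and whether they hold or skip the exon was not tested. Transcript 203 also lacks the noncoding first exon of transcript 201, so its TPM share is not a measure of the 15-base exon alone.

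**Figure D5:**
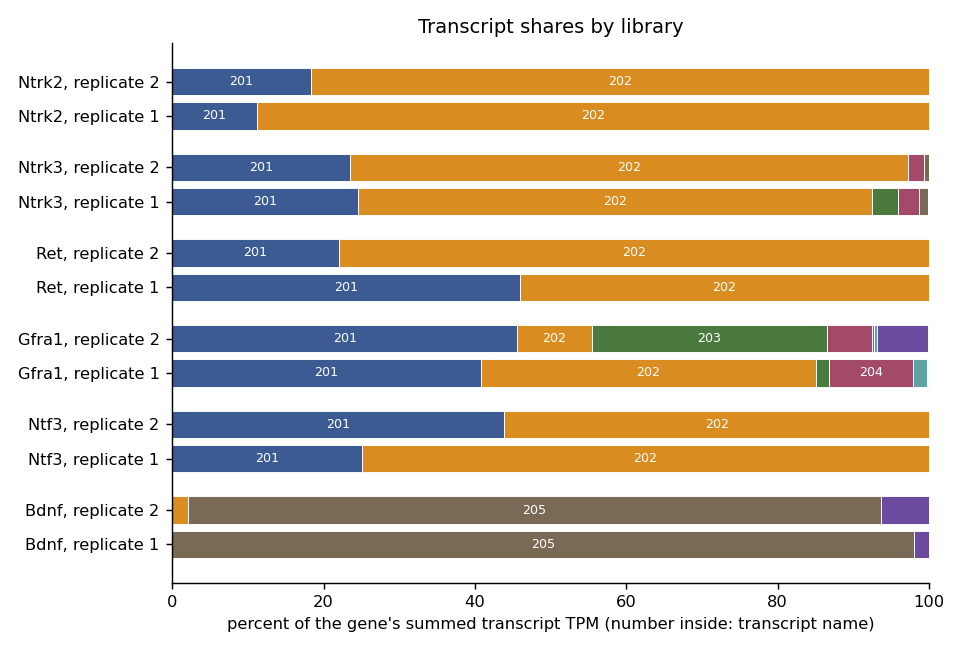
Percent of the gene's summed transcript TPM held by each transcript, replicate 2 above replicate 1, for the 6 genes with several transcripts. The truncated Ntrk2 transcript 202 holds 81.7% in replicate 2 and 88.8% in replicate 1, and Gfra1 is the gene whose most abundant transcript differs between the libraries (201 in replicate 2, 202 in replicate 1).

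Gdnf, Artn and Nrtn, ligands of the GDNF family, were each at least 2-fold apart on scaled counts, but only Artn remained so on log2(TPM + 1). Gdnf, the ligand of Gfra1, had 1.64 TPM in replicate 2 and 0.69 TPM in replicate 1 and was 2.08-fold higher in replicate 2, with an interval that reaches below 2-fold (1.75 to 2.48). Artn, the ligand of GFRalpha3, had 1.65 TPM in replicate 2 and 0.16 TPM in replicate 1 (6.70-fold higher). Nrtn, the ligand of GFRalpha2, was lower in replicate 2, with 5.63 TPM in replicate 2 and 10.5 TPM in replicate 1, or 2.16-fold lower in replicate 2 (1.90 to 2.46). Its log2 ratio of -1.11 was -0.99 with scaling by total counts, -0.80 on log2(TPM + 1) and -0.89 on log2(TPM + 0.1), and that of Gdnf, 1.05, was 0.64 on log2(TPM + 1).

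The related receptor gene Gfra2 had 3.04 TPM in replicate 2 and 1.70 TPM in replicate 1 and was not 2-fold apart. Gfra3, a gene of crest-derived neurons and glia, had 5.30 TPM in replicate 2 and 0.68 TPM in replicate 1 and was 6.82-fold higher in replicate 2. The list of sensory ganglion markers summed to 119 TPM in replicate 2 and 90.2 TPM in replicate 1, and 2 of its 10 genes passed 2-fold, both higher in replicate 2. The pan-sensory genes Pou4f1 (12.5 TPM in replicate 2 and 12.9 TPM in replicate 1) and Prrxl1 (3.20 TPM in replicate 2 and 3.56 TPM in replicate 1) were close to equal. Isl1 and Isl2 stand in both the sensory and the motor neuron list.

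Over the whole list of 39 other pathway genes, 31 were at 1 TPM or more in both libraries. Of the 36 with 100 counts or more, 4 were at least 2-fold higher in replicate 2, Gfra3, Gdnf and Artn among them, where 6.35% of all genes tested were, and 2 (Nrtn and Dok6) were at least 2-fold lower, where 5.05% were. The median log2 ratio of the 36 was 0.31. Dok6, an adaptor that binds Ret, had 0.94 TPM in replicate 2 and 2.00 TPM in replicate 1. Several signalling genes were above all 8 genes in level. The 5 highest by mean TPM were Maged1, a p75 partner (580 ± 82.9), Plcg1, a phospholipase recruited by Trk kinases (120 ± 6.61), and the adaptors Grb2 (58.6 ± 4.36), Shc1 (53.2 ± 16.3) and Sh2b1 (49.2 ± 6.12; SD, n = 2 for each), and none of the 5 was 2-fold apart. The ligand Pspn and the receptor Gfral were listed at 0 in replicate 1 and had 0.14 and 0.01 TPM in replicate 2, from 3 and 1 counts.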

How the data were processed

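The labels describe strand-specific paired-end sequencing of polyadenylated RNA. The accompanying notes, deposited by the authors, place the gene and transcript tables on mm10 with the M4 annotation. Which aligner and quantifier were run, and whether strand was used in counting, is not given in the sources used here. Of genes overlapping the 8, the tables hold Gm9885, antisense in Ntrk3 (88 expected counts in replicate 2, 155 in replicate 1), and Gm16277, at the end of Gfra1 (5 and 1).

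The authors deposited expected counts per gene, TPM, FPKM and transcript percent of the gene, per the file headers. They also deposited, on mm9, RPKM per gene and transcript, junction read counts, and contigs with a coverage signal. No label ties the 2 values of an mm9 row to a replicate. In the deposited TPM, spike-ins share in the total.

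Expected counts were rounded and scaled by TMM (edgeR 4.0.16), from 108006997 counts on Ensembl genes in replicate 2 and 120461123 in replicate 1. Log2 ratios used a prior count of 0.5, and a gene was called 2-fold apart at 100 summed counts or more. The calls were checked on simulated counts with known changes and counting error only, so the check does not cover the spread between real libraries. Symbols, positions and sequences come from GENCODE M21 (42462 of 43346 identifiers matched). A Trk transcript was called full-length when its coding sequence ends at the kinase form's stop codon, and truncated when it holds the last shared exon but ends elsewhere. Python 3.11.15, pandas 2.3.3, scipy 1.17.1 and DESeq2 1.42.0 (size factors, an alternative) were used. The rule for named genes took the 8, their closest relatives, the 5 highest of the pathway list and those at least 2-fold apart, with markers named beside the results they touch. Some genes that it names are left out of the text. The genes and lists were chosen with earlier results of these data known. Nothing in the labels says more of how the 2 biological replicates were taken, so their spread may be partly technical.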

Additional observations from a re-analysis of the deposited data

How the results depend on the processing

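The order of the 8 levels was the same with FPKM, with TPM over Ensembl genes only and with mean mm9 RPKM. It was also the same with Gfra1 taken from its complete models (chosen after seeing the data), at a mean of 13.1 TPM against 21.7, but in replicate 1 alone Gfra1 then stands below Ngfr and Ntrk2. With a single library left, 8 of the 8 genes kept their place without replicate 1 and 4 without replicate 2, where Gfra1 stands above Ngfr and Ntf5 above Bdnf. On log2(TPM + 1), which moves the median of all genes to 0.12, 3 of the other pathway genes were 2-fold apart instead of 6; 5 were with scaling by total counts and 8 with no minimum count. Ntf3 was the only 1 of the 8 genes 2-fold apart under all 7 alternatives run. The direction of Gfra1 turned on the TPM scales, with a log2 ratio of -0.42 at a pseudocount of 1 and -0.44 at 0.1, against 0.18, and was 0.27 over complete models only. The truncated share of Ntrk2 was 94.7% by junction reads and 81.7% to 88.8% by single library. That of Ntrk3 was 66.4% by transcript counts, 70.9% with noncoding transcripts in the denominator, 80.3% by junction reads, 81.5% by mm9 transcript RPKM (chosen after seeing the data) and 72.5% to 75.3% by single library. By the first junction count alone the junction share was 96.7% for Ntrk2 and 92.3% for Ntrk3, and by the second 91.0% and 77.4%. The cause was not tested. The same transcript led in both libraries for 5 of 6 genes by TPM and 6 of 6 by counts. No paired analysis was possible because there is only 1 group. Depth limits the ligands most: Ntf5 rests on 208 and 164 counts.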

Other observations

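The mm9 gene table gives the same 8 genes as RPKM, with a first and a second value that no label ties to a replicate. They were 2.52 and 4.48 for Ngfr, 3.02 and 2.49 for Gfra1, 1.90 and 1.66 for Ntrk2, 1.08 and 1.90 for Ntrk3, 0.248 and 0.874 for Ntf3, 0.270 and 0.588 for Ret, 0.152 and 0.272 for Bdnf, and 0.159 and 0.226 for Ntf5. Gfra1 and Ntrk2 were the genes whose second value was the lower. For the noncoding Ntrk3 transcript 203, the mm9 table lists 0.0849 and 1.08 RPKM, whereas the mm10 tables list 0 TPM in replicate 2 and 0.26 TPM in replicate 1.

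Gfra1 had 152 unannotated junctions inside the gene with 275 reads in all, against 2999 reads over its 14 annotated junctions. Most of the unannotated Gfra1 junctions with 3 reads or more lay in a single stretch, mm9 chr19:58392830-58393620. Their introns there overlapped and were 34 to 418 bases long. Whether these reads come from splicing or from misplaced alignments was not tested. Ngfr, with more annotated junction reads (4236), had 26 unannotated junctions with 49 reads. Ret had 10 with 13 reads, beside 1492 reads over 19 annotated junctions.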
